A study of Mus musculus with 8 samples.

Results

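The genes described here encode 10 proteins that place, read or protect methylation of lysine 9 on histone H3 (H3K9) or that keep endogenous retroviruses silent: Trim28, Setdb1, Rif1, Atrx, Zfp809, Kdm1a, Ehmt1, Ehmt2, Suv39h1 and Suv39h2. They were chosen by name and not by a value computed here, but with earlier results of these data known. They are 10 of the 54232 genes counted. Polyadenylated RNA was sequenced in 8 libraries of E14, a line of mouse embryonic stem cells kept in serum and LIF, a cytokine that holds them undifferentiated. There were 4 groups of 2 libraries: Ssrp1 knockout cells made with Cas9 and a guide RNA, Ssrp1 control cells, Usp7 knockdown cells, and Usp7 control cells. Ssrp1 is a subunit of the histone chaperone FACT, and Usp7 is a protease that removes ubiquitin from other proteins. Per the labels' protocols the knockdown used a short hairpin RNA cloned in the pSuper puro vector, 1000 ng of plasmid, and 3 days of puromycin from 24 h after transfection. The labels call both reference groups control, and they do not say whether the Ssrp1 controls went through editing, whether the knockout is 1 clone, or whether the Usp7 controls received an empty vector. They also do not say that the 2 libraries of a group came from separate cultures, and a p-value here reflects only how far these libraries spread.

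In embryonic stem cells, KRAB zinc finger proteins such as Zfp809 bind retroviral sequences and bring in Trim28, a scaffold that recruits the methyltransferase Setdb1, which trimethylates H3K9. Ehmt1 and Ehmt2 work as a pair and add mono- and dimethylation to H3K9 in euchromatin, while Suv39h1 and Suv39h2 trimethylate it in pericentric heterochromatin. Atrx is a chromatin remodeller that loads a histone H3 variant at silent repeats with Daxx, Rif1 organises replication timing and helps keep retroviruses and 2-cell genes silent in mouse embryonic stem cells, and Kdm1a removes methyl groups from lysine 4 of the same histone. The deposited tables count genes, and transcripts of the retroelements themselves were not analysed here.

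Of the 10 genes, 3 were higher in Ssrp1 knockout cells, Rif1, Atrx and Zfp809, where 3.39% of all tested genes were called higher. A gene was called when its p in edgeR's quasi-likelihood test, a count test run on the 4 libraries of an experiment, stayed under 0.05 after Benjamini-Hochberg adjustment over all genes tested. The shared scaffold and its enzyme, Trim28 and Setdb1, did not pass the test in either experiment, and in Usp7 knockdown cells, where 2.99% of the tested genes were called, 0 of the 10 were. The 3 higher genes lie on different chromosomes of mm10, Rif1 at chr2:52072832-52122383 on the plus strand, Atrx at chrX:105797615-105929403 on the minus strand and Zfp809 at chr9:22225714-22243354 on the plus strand. As the start of a gene, the more upstream of its GENCODE and RefSeq starts was taken. The Zfp809 window therefore ends at 22225666, short of the start given above. The 200 bases before that start are shown for Atrx and Zfp809, both called higher, and for Setdb1, which was not called. They are from the RefSeq table of GRCm38.p6, 5′ to 3′ on the strand of the gene. Of the 10 genes, 9 had an entry there, and Rif1 did not. Capitals mark matches on either strand to 3 promoter motifs, the CCAAT box (CCAAT, or ATTGG on the other strand), the GC box (GGGCGG, or CCGCCC) and the ETS core (CCGGAAG, or CTTCCGG), which do not overlap here. Of all 32851 promoter windows of this length, 29.3% held a CCAAT box, 31% a GC box and 6.29% an ETS core.
Atrx, chrX:105929404-105929603, minus strand: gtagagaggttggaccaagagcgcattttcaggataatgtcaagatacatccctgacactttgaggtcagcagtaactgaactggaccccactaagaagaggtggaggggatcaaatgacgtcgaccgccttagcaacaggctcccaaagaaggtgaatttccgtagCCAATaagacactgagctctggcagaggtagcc
Zfp809, chr9:22225467-22225666, plus strand: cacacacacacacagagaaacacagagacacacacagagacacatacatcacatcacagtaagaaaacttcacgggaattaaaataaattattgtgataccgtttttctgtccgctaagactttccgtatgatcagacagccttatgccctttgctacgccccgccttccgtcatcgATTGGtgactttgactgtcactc
Setdb1, chr3:95357203-95357402, minus strand: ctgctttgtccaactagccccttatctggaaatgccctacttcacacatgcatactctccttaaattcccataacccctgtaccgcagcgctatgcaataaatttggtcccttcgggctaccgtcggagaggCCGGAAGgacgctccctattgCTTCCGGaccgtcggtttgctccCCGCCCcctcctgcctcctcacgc
The Atrx and Zfp809 windows each held 1 CCAAT box, neither a GC box nor an ETS core, and 5 and 8 CpG dinucleotides. The Setdb1 window held 12 CpG, 1 GC box and 2 ETS cores, and no CCAAT box in these 200 bases. GC content was 50% for Atrx, 44% for Zfp809 and 56.5% for Setdb1, against a median of 53% over all windows.

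Total counts ranged from 15879056 to 18361130 per library, and the 10 embryonic stem cell markers, Pou5f1 and Sox2 among them, were detected in every library. The targets were read first, as TMM-scaled CPM, the count relative to a library size that is adjusted for composition. Usp7 had 111.2 and 122.4 CPM in the knockdown libraries, against 370.8 and 359.4 CPM in their controls, a log2 change of -1.64 (SE 0.19; edgeR quasi-likelihood test with Benjamini-Hochberg adjustment, adjusted p = 0.0012). Without Usp7 knockdown replicate 2 this became -1.72 with an adjusted p of 0.13, the highest of 11 alternatives. Ssrp1 had 412.2 and 123.3 CPM in the knockout libraries, against 462.4 and 479.1 CPM in theirs. The library labelled Ssrp1 knockout replicate 1 thus kept most of the transcript, and Ssrp1 did not pass the test (log2 change -0.77, SE 0.45, adjusted p = 0.41), while without that library the change was -1.94 (adjusted p = 0.0021) and without replicate 2 it was -0.15 (adjusted p = 0.9). An edited gene can still give transcript, so these counts do not measure how much Ssrp1 protein was left.

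The levels of the 10 genes spanned a wide range. Per kilobase of exon, Trim28 was the highest in all 4 groups, at 443.4 ± 101 CPM per kb in Ssrp1 knockout, 488 ± 87.5 in Ssrp1 control, 592 ± 56.4 in Usp7 knockdown and 703.8 ± 190 in Usp7 control cells (SD, n = 2 each). Kdm1a came next in every group, at 45.71 to 64.73 CPM per kb, and its libraries did not overlap those of Trim28 or of the gene below it. Ehmt2 and Setdb1 followed in the Ssrp1 controls, at 30.52 ± 2.17 and 21.06 ± 0.404 CPM per kb (SD, n = 2), while Rif1 was in the third place in both perturbed groups, at 31.63 ± 17.1 in knockout and 40.03 ± 0.909 in knockdown cells. In the knockout the libraries of Rif1 overlapped those of Ehmt2 and of Setdb1, and those of Ehmt2 and Setdb1 overlapped, so the order of these genes is not resolved there. The lowest level per kb was that of Suv39h1 in 3 groups, at 5.732 ± 0.914 in Ssrp1 knockout, 4.498 ± 0.298 in Usp7 knockdown and 3.826 ± 0.182 CPM per kb in Usp7 control cells. In the knockout its libraries overlapped those of Suv39h2 and Atrx, so the lowest place is not resolved there. In the Ssrp1 controls Atrx was the lowest, at 2.31 ± 0.618 CPM per kb, below Suv39h1 at 3.951 ± 0.871. The length used merges the exons of all annotated transcripts of a gene, 21757 bases for Atrx, and the order of genes depends on that choice. Between the replicates of a group, Setdb1 varied by at most 1.08 times, whereas Rif1 and Atrx differed 2.23 and 2.32 times between the knockout libraries.

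**Figure D1:**
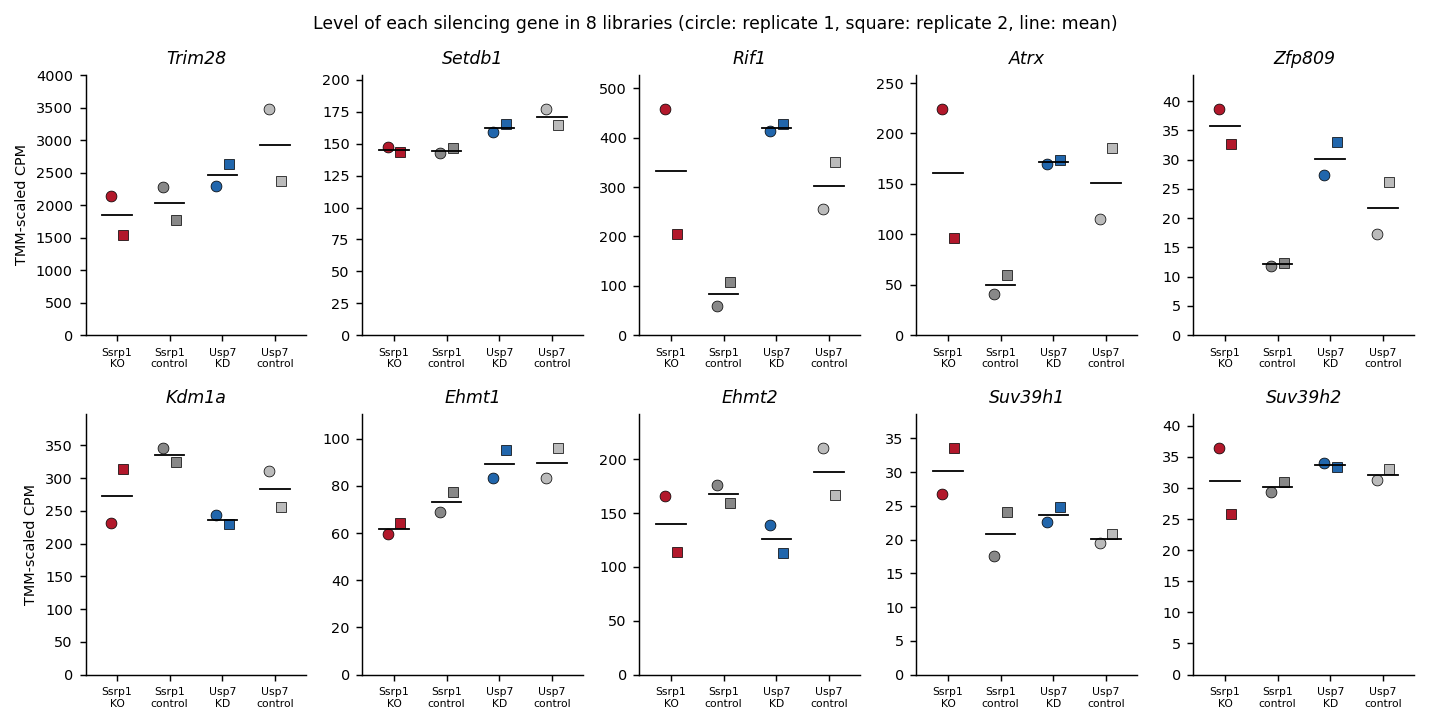
TMM-scaled CPM of each of the 10 silencing genes (vertical axes from 0, a scale of its own for each gene) in Ssrp1 knockout, Ssrp1 control, Usp7 knockdown and Usp7 control libraries. Circles are replicate 1, squares replicate 2 and lines the mean of the 2 libraries. Both knockout libraries lie above both of their controls for Rif1, Atrx and Zfp809, and knockout replicate 1 is the higher of the knockout pair in all 3 of these panels.

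Zfp809, the KRAB zinc finger protein known for binding the primer binding site of murine leukaemia viruses, had 38.75 and 32.71 CPM in the Ssrp1 knockout libraries, against 11.91 and 12.33 CPM in their controls, from 571 and 579 counts against 166 and 209. Both knockout libraries were well above both controls, and the replicates of each group were close together. It rose 3.05-fold (log2 change 1.61, SE 0.33, 95% interval 0.87 to 2.34; edgeR quasi-likelihood test, adjusted p = 0.028). Trim28, the scaffold it recruits, had 2141 and 1546 CPM in the knockout libraries, against 2286 and 1772 CPM in the controls, and Setdb1, the enzyme brought in by Trim28, had 147.2 and 143.2 CPM against 142.4 and 146.3 CPM. The groups overlapped for both genes. The log2 change was -0.08 for Trim28 (95% interval -0.83 to 0.66; edgeR adjusted p = 0.93) and 0.06 for Setdb1 (95% interval -0.51 to 0.62; adjusted p = 0.94). The sign of Trim28 turned, to 0.32, when offsets for the GC content and length of transcripts were added to the test, so no direction is given for it.

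Rif1 had 459 and 205.5 CPM in the Ssrp1 knockout libraries, against 58.82 and 107.5 CPM in the controls, from 6765 and 3637 counts against 820 and 1822. The groups did not overlap, but knockout replicate 1 was the highest and control replicate 1 the lowest of the 4. It rose 4.1-fold (log2 change 2.04, SE 0.42, 95% interval 1.11 to 2.97; edgeR adjusted p = 0.028). Atrx, the remodeller, had 224.7 and 96.66 CPM in the knockout libraries, against 40.74 and 59.75 CPM in the controls, with the same libraries at the ends. It rose 3.29-fold (log2 change 1.72, SE 0.4, 95% interval 0.84 to 2.59; edgeR adjusted p = 0.041). The Ssrp1 controls were also the lowest of the 4 groups for these 3 genes: the Usp7 control libraries held 254.6 and 350.8 CPM of Rif1, 115.7 and 185.9 CPM of Atrx, and 17.28 and 26.17 CPM of Zfp809. The groups of control libraries belong to separate tables and were set on 1 scale by joint TMM factors, and their difference was not tested.

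The writers and the demethylase had smaller differences, and none passed the test. Ehmt1 had 59.78 and 64.12 CPM in the Ssrp1 knockout libraries, against 68.93 and 77.39 CPM in the controls, and Kdm1a had 230.7 and 313.9 CPM against 346.2 and 324.3 CPM. Both knockout libraries lay below both controls for these genes, with log2 changes of -0.19 (95% interval -0.79 to 0.41) and -0.25 (95% interval -0.86 to 0.36). Ehmt2 had 165.6 and 114.1 CPM in knockout cells, against 175.9 and 159.1 CPM in the controls, which overlapped (log2 change -0.21, 95% interval -0.82 to 0.41). With offsets for the GC content and length of transcripts these 3 values became 0.1 for Ehmt1, 0.05 for Kdm1a and 0.25 for Ehmt2, so their signs depend on the scaling. Suv39h1 had 26.8 and 33.61 CPM in the knockout libraries, against 17.57 and 24.07 CPM in the controls, without overlap (log2 change 0.58, 95% interval -0.17 to 1.33, edgeR adjusted p = 0.41). Of its exon length 14.6% is shared with the antisense gene Gm14820, which held 23 to 201 counts per library, and the strand setting of the counting is not given in the sources used here. Suv39h2, which shares 8.1% of its exon length with Dclre1c, had 36.44 and 25.87 CPM in the knockout, against 29.34 and 30.97 CPM in the controls, which overlapped (log2 change 0.09, 95% interval -0.61 to 0.8, and -0.33 with the offsets).

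Counted together, 3 of the 10 genes were called higher and 0 lower, where 3.39% of the 15757 tested genes were called higher, 0.324% lower and 3.71% in either direction. DESeq2 also called 3 of the 10, and 1109 of the 15757 tested genes. The unadjusted p in edgeR was under 0.05 for 3, against 18.2% of all tested genes. The libraries did not overlap for 4 genes in the higher direction and 2 in the lower, against 25.6% and 25.3% of all tested genes, or 50.8% in either direction. The median log2 change was 0.08 over the 10 genes and 0.03 over all tested genes. Without control replicate 1 the 3 genes were no longer called, with log2 changes of 1.63 for Rif1, 1.43 for Atrx and 1.53 for Zfp809. The spread in that fit comes from the knockout pair alone, and the cause of the lost calls was not tested. Over all genes 20 were then called in place of 585. Leaving out control replicate 2 ended the call of Zfp809 (1.65). Without knockout replicate 1 the log2 changes were 1.3 for Rif1, 0.93 for Atrx and 1.42 for Zfp809, and Atrx lost its call. Without knockout replicate 2 they were 2.5, 2.2 and 1.72, and the genes kept their calls. The knockout library left in that fit was replicate 1, which kept most of the Ssrp1 transcript.

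**Figure D2:**
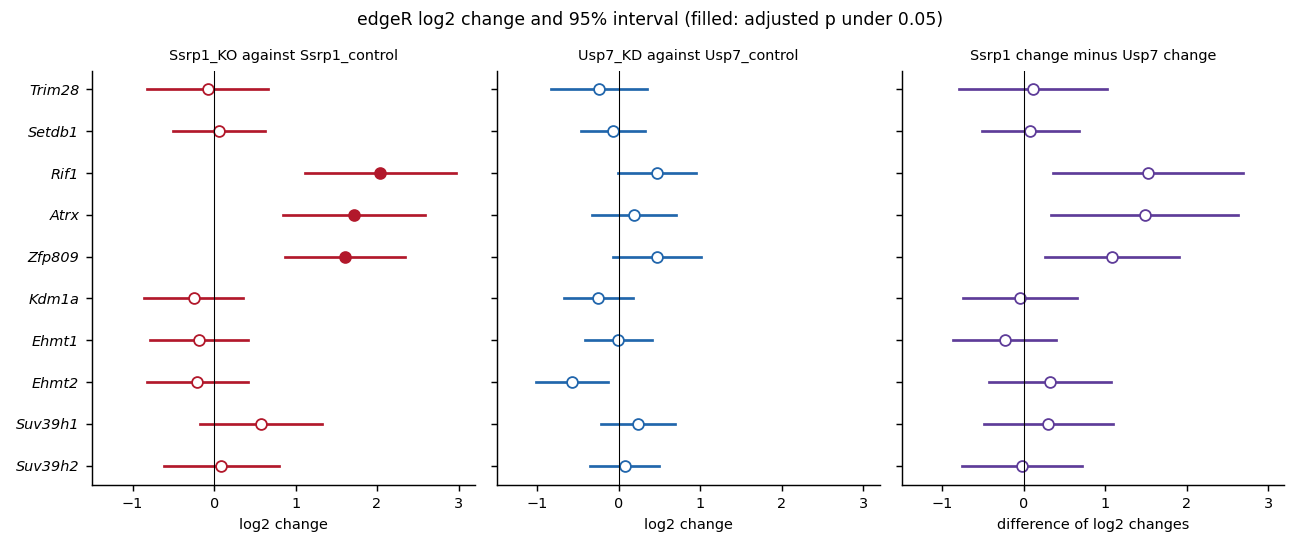
Log2 changes of the 10 silencing genes (rows) with 95% intervals from edgeR, in Ssrp1 knockout against Ssrp1 control, in Usp7 knockdown against Usp7 control, and the Ssrp1 change minus the Usp7 change. Filled circles have an adjusted p under 0.05 and open circles do not. Rif1, Atrx and Zfp809 are filled in the Ssrp1 panel alone, at 2.04, 1.72 and 1.61, and no circle is filled in the other panels.

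Base composition moved with these changes. In the Ssrp1 experiment the 1862 tested genes whose longest transcript has under 42% GC changed by a median of 0.92 on the log2 scale, and 13.8% of them were called higher, whereas the 4429 genes with at least 54% GC had a median of -0.18 and 0.316% were called higher. Rif1 (39.3% GC) and Atrx (39.5%) belong to the first class, Trim28 (59.6%) and Ehmt2 (60.8%) to the last. Zfp809 (45.2%) and Suv39h2 (43%) belong to the class from 42% to 46%, whose median was 0.33. Among the libraries, the class under 42% lay 0.63 and 0.2 above the mean of the experiment in knockout replicates 1 and 2, and 0.62 and 0.23 below it in control replicates 1 and 2, on the log2 scale. In the Usp7 experiment the class medians lay between 0.07 and -0.1. With offsets for GC content and length in the same test, Zfp809 kept its call (log2 change 1.33), while Rif1 fell short of it at 1.22 (adjusted p = 0.072) and Atrx at 0.96 (adjusted p = 0.12). Those offsets moved the median of all tested genes by 0.08 (log2). The share of counts from mitochondrially encoded genes was 7.312% and 2.812% in the knockout libraries, against 0.7316% and 0.7763% in the controls, and it was 2.441% and 2.027% in knockdown cells, against 2.229% and 1.666% in theirs. Base composition, mitochondrial share and genotype cannot be told apart between these 4 Ssrp1 libraries.

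**Figure D3:**
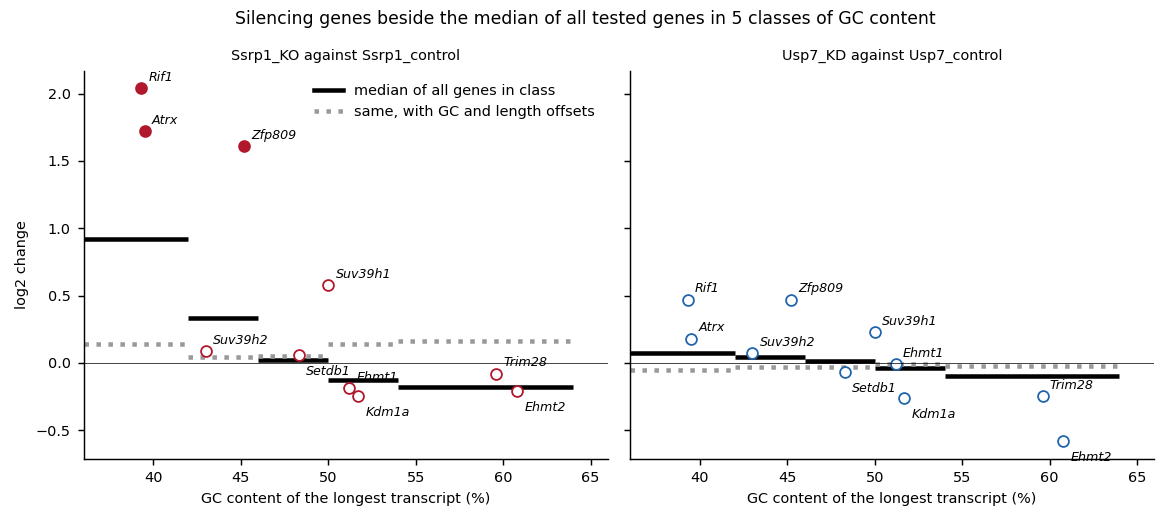
Log2 change of each silencing gene against the GC content of its longest transcript (%), in Ssrp1 knockout against Ssrp1 control (left) and Usp7 knockdown against Usp7 control (right). Black bars are the median of all tested genes in 5 GC classes, dotted grey bars the same with GC and length offsets, and filled circles have an adjusted p under 0.05. On the left the black bars run from 0.92 in the class under 42% to -0.18 in the class of 54% or more, where the signs of Trim28 and Ehmt2 turn with the offsets.

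Under 11 alternative settings, shown in the plot of log2 changes by setting, Rif1, Atrx and Zfp809 stayed above 0 in Ssrp1 knockout cells. Their adjusted p ran from 6.9e-09 to 0.25 for Rif1, from 2e-07 to 0.37 for Atrx and from 0.00078 to 0.32 for Zfp809.

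**Figure D4:**
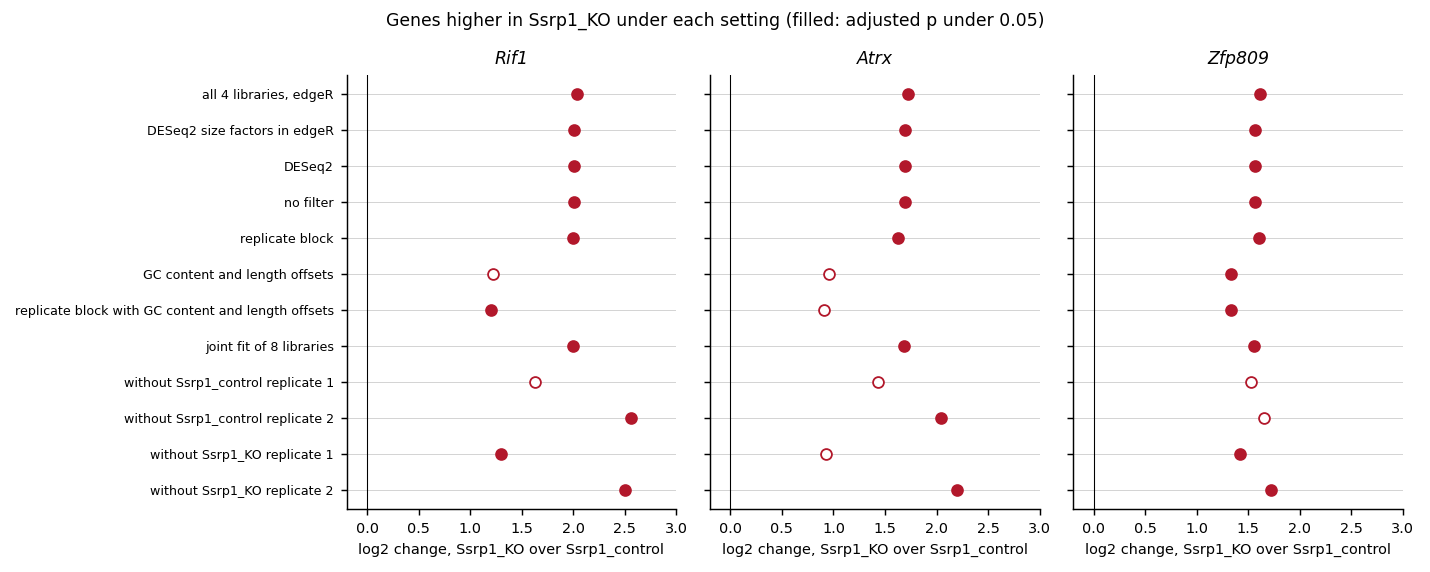
Log2 change of Rif1, Atrx and Zfp809 in Ssrp1 knockout over Ssrp1 control (horizontal axes) under each setting (rows). Filled circles have an adjusted p under 0.05 and open circles do not. All values are above 0, and all 3 genes are open without Ssrp1 control replicate 1.

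In Usp7 knockdown cells 0 of the 10 genes were called, where 2.99% of the 15915 tested genes were called in either direction and 2.36% higher. DESeq2 called 0 of the 10, and 697 of the 15915 tested genes. In edgeR 1 of the 10 had an unadjusted p under 0.05, against 16.7% of all tested genes. That gene was Ehmt2, the partner of Ehmt1, with 139.3 and 113.3 CPM in the knockdown libraries, against 210.6 and 166.6 CPM in the controls. Both knockdown libraries lay below both controls (log2 change -0.58, SE 0.2, 95% interval -1.02 to -0.14; unadjusted p = 0.015 and adjusted p = 0.17 in edgeR's quasi-likelihood test). With the replicate number as a block the same value had an adjusted p of 0.033. Ehmt1 had 83.52 and 95.22 CPM against 83.33 and 96.18 CPM, which overlapped (log2 change -0.01, 95% interval -0.42 to 0.41).

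Rif1 had 413.7 and 427.2 CPM in Usp7 knockdown cells, against 254.6 and 350.8 CPM in the controls, and Zfp809 had 27.4 and 32.98 CPM against 17.28 and 26.17 CPM. Both genes had a log2 change of 0.47, with 95% intervals of -0.01 to 0.95 for Rif1 and -0.07 to 1.01 for Zfp809, and edgeR adjusted p-values of 0.3 and 0.37. Their groups did not overlap, but the control libraries differed from each other by 1.38 and 1.51 times. Atrx had 169.9 and 173.5 CPM in knockdown cells, inside the span of its controls at 115.7 and 185.9 CPM (log2 change 0.18, 95% interval -0.33 to 0.7, and -0.09 with GC and length offsets). Without Usp7 control replicate 2, the log2 changes of Rif1, Atrx, Zfp809 and Ehmt2 were 0.73, 0.57, 0.81 and -0.73. The spread in that fit comes from the knockdown pair alone, so its calls are not read here. Over the 11 alternatives the highest adjusted p of each of these 4 genes was 1.

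The remaining 5 genes had an adjusted p of at least 0.55. Trim28 had 2296 and 2627 CPM in knockdown cells, against 3486 and 2367 CPM in the controls (log2 change -0.25, 95% interval -0.83 to 0.34), and Setdb1 had 159 and 165.6 CPM against 177.5 and 164.4 CPM (log2 change -0.07, 95% interval -0.47 to 0.32). The groups overlapped for both. Kdm1a had 243.7 and 229.8 CPM in knockdown cells, below both controls at 310.6 and 255.6 CPM (log2 change -0.26, 95% interval -0.68 to 0.17, adjusted p = 0.55). Suv39h1 and Suv39h2 had log2 changes of 0.23 and 0.07, and their knockdown libraries, at 22.59 and 24.81 CPM and at 34.05 and 33.35 CPM, lay just above the controls, at 19.49 and 20.84 CPM and at 31.21 and 33.04 CPM. The libraries did not overlap for 4 genes in the higher direction and 2 in the lower, against 24.7% and 22.9% of all tested genes, or 47.6% in either direction.

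Within a library the ratio of paralogues does not depend on its scaling. It can still move with base composition and length, and no offsets for these were applied to the ratios. In the Ssrp1 experiment the offsets moved the log2 change of Suv39h1 from 0.58 to 0.79 and that of Suv39h2 from 0.09 to -0.33. Those of Ehmt1 and Ehmt2 moved from -0.19 and -0.21 to 0.1 and 0.25. The level of Ehmt1 per kb was 0.406 and 0.568 times that of Ehmt2 in the Usp7 knockdown libraries, against 0.268 and 0.39 times in the controls, and 0.244 and 0.38 times in the Ssrp1 knockout, against 0.265 and 0.329 times in its controls. The level of Suv39h1 per kb was 0.616 and 1.09 times that of Suv39h2 in the Ssrp1 knockout, against 0.501 and 0.65 times in the controls, and 0.555 and 0.623 times in the Usp7 knockdown, against 0.522 and 0.528 times. The ratio of Ehmt1 to Ehmt2 was higher in both knockdown libraries than in both of their controls, and the Ssrp1 groups overlapped for both ratios. No test of these ratios was run; an exact permutation test of 2 libraries against 2 cannot reach a p under 0.05.

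A test of the Ssrp1 change against the Usp7 change used all 8 libraries in 1 model. Of the 10 genes 0 were called, where 1% of 17052 tested genes were called in either direction and 0.61% higher. DESeq2 called 0, and 3 had an unadjusted p under 0.05, against 15.1% of all tested genes. These were Rif1, Atrx and Zfp809, with a change in the Ssrp1 experiment that exceeded the Usp7 one by 1.52 (95% interval 0.36 to 2.69), 1.49 (0.34 to 2.63) and 1.08 (0.26 to 1.91) on the log2 scale, each with an edgeR adjusted p of 0.21. Rif1 and Atrx were called without Ssrp1 knockout replicate 2, at 1.96 and 1.94, and with no filter on low counts. The call of these genes in 1 experiment and not in the other therefore does not show that the experiments differ.

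The partners and opponents of the 10 genes were read as a list of 62, of which 59 were tested in each experiment. In Ssrp1 knockout cells 3 were called higher and 0 lower, against 3.39% and 0.324% of all tested genes, and 16 reached an unadjusted p under 0.05, against 18.2%. DESeq2 called 7 higher and 2 lower, where it called 899 higher and 210 lower of the 15757 genes tested. The median log2 change was 0.18 against 0.03 over all genes. Zfp961, a KRAB zinc finger gene, had 216.1 and 130.1 CPM in the knockout libraries, against 36.37 and 56.57 CPM in the controls (log2 change 1.94, SE 0.35, edgeR adjusted p = 0.016). Hells, a remodeller needed for DNA methylation at repeats, had 511.1 and 222.2 CPM against 81.55 and 109.2 CPM (log2 change 1.99, adjusted p = 0.023), and Zmym2, a zinc finger partner of the Kdm1a complex, had 127.8 and 97.9 CPM against 38.45 and 50.55 CPM (log2 change 1.39, adjusted p = 0.031). Their GC content was 42% for Zfp961, 37.7% for Hells and 39.2% for Zmym2. Leaving out control replicate 1 ended the calls of these 3 genes, and calls fell over all genes too. With either knockout replicate left out, calls rose in the list, as they did over all genes. Over the 11 alternatives the log2 change ran from 1.41 to 2.32 for Zfp961, 0.86 to 2.46 for Hells and 0.57 to 1.62 for Zmym2. Of these 3 genes Zfp961 alone kept its call with the GC and length offsets. Of the 9 listed KRAB zinc finger genes, Zfp961 included, 7 were tested, with a median log2 change of 1.47. At an unadjusted p under 0.05 in edgeR, 4 lay above 0 and 1 below 0, where 18.2% of all tested genes reached that p. The 4 above 0 had 37.3% to 42% GC, and knockout replicate 1 was above replicate 2 in each. For Zfp932 alone of these, knockout replicate 2, at 5.48 CPM, lay inside the controls, at 5.38 and 6.725 CPM. The gene below 0 was Zfp819, named after its values were seen, with 17.37 and 3.22 CPM in knockout cells, against 45.98 and 31.79 CPM in the controls (log2 change -1.87, adjusted p = 0.12). The 22 tested genes around Trim28 and Setdb1, Atf7ip and Cbx1 among them, had a median log2 change of 0.29 with 4 at an unadjusted p under 0.05, and the 9 tested H3K9 demethylases, Kdm4a among them, a median of -0.11 with 2, where 18.2% of all tested genes reached that p.

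In Usp7 knockdown cells 1 of the 59 was called higher and 1 lower, against 2.36% and 0.628% of all tested genes. At an unadjusted p under 0.05 there were 8, against 16.7%, and the median log2 change was -0.07 against -0.02 over all genes. Prdm16, of a family of histone methyltransferases, rose to 18.53 and 19.11 CPM in knockdown cells, against 7.478 and 7.595 CPM in the controls (log2 change 1.32, SE 0.23, edgeR adjusted p = 0.013). Chaf1b, a subunit of the chaperone that loads histones at replication forks, fell to 52.95 and 43.03 CPM in knockdown cells, against 90.24 and 81.49 CPM in the controls (log2 change -0.84, SE 0.19, adjusted p = 0.044). Neither was called without Usp7 knockdown replicate 2 (adjusted p = 0.34 for Prdm16 and 0.89 for Chaf1b, the highest of 11 alternatives for each), Chaf1b was not without replicate 1 (0.19), and neither was with no filter or in the joint fit of 8 libraries. Without Usp7 control replicate 2 the calls rose in the list, as they did over all genes. In the test of the difference 0 of the list were called by edgeR, where 1% of all tested genes were, and 5 by DESeq2. In edgeR 12 of the list had an unadjusted p under 0.05, against 15.1% of all tested genes.

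Genes of the 2-cell-like state and of the germline were read beside this machinery, from lists chosen with earlier results of these data known. Not all of them were silent in the controls, and whether each is a target of the machinery was not tested. Of 15 genes of the 2-cell-like state, 14 were tested in the Ssrp1 experiment. Of these, 12 were called higher, where 3.39% of all tested genes were. In the Usp7 experiment 8 were tested and called higher, where 2.36% of all tested genes were. The median log2 changes were 3.29 and 2.77, against 0.03 and -0.02 over all tested genes. Some 2-cell-like genes passed the filter on low counts only through the perturbed group. Zscan4b had 4 and 8 counts in the Usp7 controls, against 47 and 41 in knockdown cells. The counts of tested and called genes thus depend in part on that filter. The summed level of the 15 genes was 619.1 and 1828 CPM in Ssrp1 knockout cells, against 77.61 and 220.6 CPM in the controls. Replicate 2 was above replicate 1 in each of these groups. In Usp7 knockdown cells it was 43.13 and 32.4 CPM, against 5.892 and 6.43 CPM. Zscan4d had 107.4 and 289.2 CPM in knockout cells, against 10.62 and 36.16 CPM in the controls (log2 change 3.11, edgeR adjusted p = 0.02), and Zscan4c had 103.1 and 336.6 CPM against 16.28 and 55.63 CPM (2.64, adjusted p = 0.042). The Zscan4 genes are near-identical copies, so the division of reads among them is uncertain. Neither gene was called without Ssrp1 control replicate 1 (log2 change 2.45 for Zscan4d and 1.97 for Zscan4c). With the GC and length offsets neither was called (2.61 and 2.16), and the list had 7 calls, against 322 over all genes. DESeq2 did not call Zscan4c (adjusted p = 0.14). With the replicate block and those offsets both were called (adjusted p = 0.00014 and 0.00037). The list then had 13 calls, against 917 over all genes. In the Usp7 experiment calls fell with either knockdown replicate left out, in the list and over all genes. With no filter the list had 3 calls there, against 100 over all genes, and in the joint fit 1, against 78. In bulk RNA more cells of a 2-cell-like kind and more RNA per cell cannot be told apart.

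Of 13 germline genes, 5 of 13 tested were called higher in Ssrp1 knockout cells, where 3.39% of all tested genes were. In Usp7 knockdown cells 10 of 12 were, against 2.36% of all tested genes. The median log2 changes were 1.9 and 3.37, against 0.03 and -0.02 over all tested genes. Asz1 passed the filter on low counts in the Ssrp1 experiment only through the knockout, with 17 and 18 counts against 3 and 3. Dazl, an RNA-binding protein of germ cells, had 54.49 and 57.12 CPM in knockout cells, against 6.599 and 7.02 CPM in the controls (log2 change 3.08, edgeR adjusted p = 0.0049). It had 89.96 and 111.7 CPM in knockdown cells, against 4.249 and 5.377 CPM in theirs (log2 change 4.39, adjusted p = 1.2e-05), and it kept its call under all 11 alternative settings of each experiment. Ddx4, a germ cell helicase, had 132.4 and 178.5 CPM in knockdown cells, against 8.781 and 11.42 CPM in the controls (log2 change 3.94, adjusted p = 1.8e-05). Rpl10l, named after its values were seen as the germline gene with the most counts and the 1 of 13 below 0 in the Ssrp1 experiment, had 48.38 and 58.02 CPM in knockout cells, against 148.1 and 79.22 CPM in the controls (log2 change -1.03, adjusted p = 0.11). With either control replicate left out, fewer germline genes were called higher in the Ssrp1 experiment. With either knockout replicate left out, more were. The count over all genes moved the same ways. With all libraries, DESeq2 called 8 germline genes higher, where it called 899 higher over all genes. These counts were 9 and 1238 with no filter, 10 and 1042 in the joint fit, and 1 and 273 with the GC and length offsets. With the replicate block and those offsets they were 5 and 691.

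Markers of other cell types were read in the same libraries. The 8 primitive endoderm markers summed to 61.95 and 79.94 CPM in Ssrp1 knockout cells, against 16.21 and 27.78 CPM in the controls, and to 40.54 and 45.75 CPM in Usp7 knockdown cells, against 27.48 and 35.2 CPM. The 8 trophoblast markers summed to 72.4 and 83.84 CPM in the knockout, against 53.87 and 62.88 CPM, and to 75.33 and 71.09 CPM in the knockdown, against 41.81 and 52.55 CPM. The 8 fibroblast markers stayed between 13.51 and 40.22 CPM in all libraries, with 0 to 4 of them at 0. The 10 embryonic stem cell markers summed to 8599 and 8274 CPM in the knockout, against 11600 and 8949 CPM, and to 5479 and 5127 CPM in the knockdown, against 7402 and 6167 CPM. Their part in the levels of the silencing genes was not tested.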

How the data were processed

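Polyadenylated RNA of 8 libraries was sequenced, and the authors deposited unnormalised gene counts, with 1 table for each experiment. Per the submitters' processing notes, cutadapt, HISAT2 and featureCounts were used with build mm10. Their versions, the annotation, the strand setting and the rule for multimapping reads are not stated. The 92 spike-in sequences had 0 counts in every library, so changes are relative to the other genes.

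GENCODE M21 gave symbols, positions, lengths and GC content, and 67 identifiers had no symbol there. The test was edgeR 4.0.16 (R 4.3.3) on the 4 libraries of an experiment (filterByExpr, TMM factors, quasi-likelihood F test), with Benjamini-Hochberg adjustment over all genes tested and calls at an adjusted p under 0.05. The difference between the experiments came from a joint fit of 8 libraries. Standard errors were derived from the F statistic. Levels are CPM scaled by joint TMM factors, also per kilobase of exon, merged over the annotated transcripts of a gene. The fits were tested on simulated data. Alternatives were DESeq2 1.42.0, its size factors in edgeR, no filter, a replicate block, offsets for GC content and length (splines with 5 degrees of freedom), both together, a joint fit, and leaving out each library.

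All 10 genes, every called gene of the list of partners and genes overlapping the 10 are named. So are the 2 called genes with the largest counts of the 2-cell-like list and of the germline list. The members and lists were chosen with earlier results of these data known.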

Additional observations from a re-analysis of the deposited data

Results flagged for a closer look

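The change of Ddx4, a germ cell helicase, differed between the experiments by -2.97 (log2, Ssrp1 change minus Usp7 change; joint edgeR fit, adjusted p = 0.012), with 26.67 and 36.83 CPM in Ssrp1 knockout cells, against 14.35 and 17.93 CPM in their controls, and 132.4 and 178.5 CPM in Usp7 knockdown cells, against 8.781 and 11.42 CPM in theirs. It was not called without Usp7 control replicate 1 (-2.8, adjusted p = 0.065) or without Usp7 knockdown replicate 2 (-2.77, adjusted p = 0.14). The change of Usp7, the target of the hairpin, differed by 1.53 (adjusted p = 0.037), and this call was lost in 6 of the 8 fits that each left out a library (adjusted p from 0.01 to 0.29 over the 8).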

How the results depend on the processing

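Of the 3 genes called in Ssrp1 knockout cells, Rif1 was called in 9 of 11 alternatives (log2 change 1.2 to 2.56), Atrx in 7 (0.91 to 2.2) and Zfp809 in 9 (1.33 to 1.72), with adjusted p-values as given above. Of the 10 genes, 1 was called with GC and length offsets and 0 to 3 with a library left out. In Usp7 knockdown cells 0 to 4 were called with a library left out, and in the difference 2 with no filter and 0 to 2 with a library left out. Over all genes, the Ssrp1 experiment had 585 calls, 1109 with DESeq2, 1497 with no filter, 322 with GC and length offsets, 1314 in the joint fit and 20 to 1884 with a library left out. The Usp7 experiment had 476, 100 with no filter, 768 with the offsets, 78 in the joint fit and 42 to 3770 with a library left out. The difference had 171, 672 with DESeq2, 945 with no filter and 1 to 1109 with a library left out. The cause of these shifts was not tested, but with a library left out 1 group is a lone sample assumed to vary like the others.

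The replicate numbers mark no stated pairing. Deviations of same-numbered libraries from their group means correlated at 0.18 in the Ssrp1 and 0.12 in the Usp7 experiment, over 2 numbers. With the replicate number as a block, 988, 1471 and 525 genes were called in the Ssrp1 experiment, the Usp7 experiment and the difference, and 917, 1811 and 373 with the GC and length offsets added. Of the 10 genes, 3, 1 and 0 were called with the block and 2, 1 and 0 with both, the 1 being Ehmt2 each time.

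Of 360 values of the 10 genes under alternatives, 35 changed sign, all of them where the gene was not called. In the Ssrp1 experiment, the offsets alone and with the block gave 0.32 and 0.29 for Trim28, 0.05 and 0.04 for Kdm1a, 0.1 and 0.11 for Ehmt1, 0.25 and 0.2 for Ehmt2, and -0.33 and -0.34 for Suv39h2. They gave -0.09 and -0.09 for Atrx in the Usp7 experiment, and 0.24 and 0.22 for Kdm1a and 0.13 and 0.13 for Ehmt1 in the difference. With a library left out, values ran across 0 in the Ssrp1 experiment for Trim28 (-0.4 to 0.13), Setdb1 (-0.02 to 0.09), Ehmt2 (-0.56 to 0.03) and Suv39h2 (-0.23 to 0.32). They did so in the Usp7 experiment for Trim28 (-0.5 to 0.05), Atrx (-0.12 to 0.57) and Ehmt1 (-0.12 to 0.1), and in the difference for Trim28 (-0.21 to 0.33), Kdm1a (-0.31 to 0.15) and Suv39h2 (-0.31 to 0.17).

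Levels as CPM of library totals moved by more than the SD of 2 libraries for 11 of 40 means. In Ssrp1 control cells they were 133.4 for Setdb1, 11.21 for Zfp809, 308.6 for Kdm1a, 154 for Ehmt2 and 27.91 for Suv39h2. In Usp7 knockdown cells they were 174.8 for Setdb1, 452.8 for Rif1, 184.9 for Atrx, 254.8 for Kdm1a, 25.54 for Suv39h1 and 36.28 for Suv39h2. The difference between groups in the log2 ratio of Ehmt1 to Ehmt2 was 0.04 in the Ssrp1 experiment (-0.28 to 0.36 with a library left out) and 0.57 in the Usp7 experiment (0.3 to 0.84), and that of Suv39h1 to Suv39h2 was 0.52 (0.11 to 0.93) and 0.16 (0.08 to 0.25). Dividing by length cancels in such a difference.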
